A study of Homo sapiens with 16 samples.

Results

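The genes described here are 42 genes of mitosis, the step of the cell cycle in which duplicated chromosomes are separated and the cell divides. They are a list of named mitotic kinases, cyclins, kinetochore and checkpoint genes, spindle motors, cytokinesis genes and their transcription factors. No measured value enters the rule, but the list was drawn up with earlier results of these data known. Of the 42, 41 had a probe set that carried their symbol alone, out of 18417 genes with such a probe set in the whole table. CENPA, the centromeric histone H3 variant, shares its probe set with another gene and was left out. All 41 were bright enough to be tested, along with 12639 genes in all.

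RNA of 4 human cell lines was hybridised to Affymetrix Human Gene arrays, as log2 intensities. RPMI8226, KMS-11 and U266 are lines of multiple myeloma, the plasma cell malignancy. IM-9 carries the same myeloma label in the series but is commonly known as a B lymphoblastoid line transformed by Epstein-Barr virus. The 4 parental groups (RPMI8226, KMS-11, U266 and IM-9) spent 24 hours at 20% oxygen, and the 4 hypoxia-resistant (HR) groups (RPMI8226-HR, KMS-11-HR, U266-HR and IM-9-HR) spent 24 hours at 1% oxygen, with 2 arrays per group and 16 in all. The labels used here do not say how the HR sublines were derived, nor if both arrays of a group stand for different cultures, so p-values within a line measure only the spread between arrays, which may be technical. Since each subline was read at 1 oxygen level, being resistant and being at low oxygen cannot be told apart. Because the samples are bulk RNA, fewer dividing cells and less of each transcript per dividing cell cannot be told apart either.

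The labelled cell types were checked against markers. Of 8 plasma cell markers, 6 or 7 lay above the median of the table (6.27, log2) in every group, with XBP1 or IRF4 the brightest. All 7 measured B cell markers lay above that level in IM-9, against 2 in KMS-11 and 3 to 5 in the other groups. MS4A1 was the brightest of them in IM-9, where it reached 11.41 in HR cells. It was also the brightest in RPMI8226, at 9.50 in parental and 10.19 in HR cells. Of 7 markers each, 2 or 3 of T and NK cells, 0 or 1 of myeloid cells and 2 or 3 of stromal cells lay above the table median. Several markers changed in HR cells (limma adjusted p under 0.05). In IM-9, 4 of 7 B cell markers fell (CD22 by 1.30 ± 0.14, CD79A by 0.59 ± 0.10, CIITA by 0.35 ± 0.08 and BLK by 0.35 ± 0.10; list median −0.35), the myeloid list's CD68 rose from 6.98 to 8.10, and 2 of 8 plasma cell markers rose and 1 fell. In RPMI8226, 3 plasma cell markers rose (CD38 by 1.52 ± 0.12, SLAMF7 by 0.79 ± 0.13 and IRF4 by 0.36 ± 0.06) and TNFRSF17 fell, 1 B cell marker rose and 1 fell, and the stromal list's VIM rose from 9.07 to 11.06. In U266, SLAMF7 fell by 1.39 ± 0.13, 2 plasma cell markers rose, 1 B cell marker rose and 1 fell, and VIM rose from 12.12 to 12.53. In KMS-11 the one marker called was IRF4, which fell by 0.30 ± 0.06. The part of these changes in the results was not tested.

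Entry into mitosis is driven by the kinase CDK1 bound to cyclin A and the B-type cyclins, after CDC25 phosphatases remove inhibitory phosphates. Polo and Aurora kinases then build the spindle, kinetochores attach chromosomes to it, and the checkpoint proteins MAD2, BUBR1 and BUB3 hold back CDC20 and the anaphase-promoting complex until all are attached. Transcripts of these genes rise together late in the cycle under the transcription factors B-MYB (MYBL2) and FOXM1, and are held down in resting cells by the DREAM complex, which binds the cell cycle genes homology region (CHR) of their promoters, often near CCAAT boxes bound by NF-Y.

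Since the members are known to share these promoter elements, the bases before the start site were read from RefSeq (GRCh38.p14). An entry was found for 34 of the 41 members, and where a gene had several starts the one listed first was used. On either strand of the 250 bases before the start, TTTGAA or TTTAAA (the letters of the CHR) was found in 22 of 34 members (64.7%), against 22.1% of 27305 promoters of the same length and 14.3% of the 10057 that belong to tested genes. CCAAT was found in 24 members (70.6%, against 33.0% and 35.1%), and both elements in 19 (55.9%, against 7.85% and 5.49%). The E2F letters TTCCCGC were found in 3 members (8.82%, against 5.59% and 9.05%). Each motif was searched with its reverse complement (TTTAAA is its own), and no motif contains another.

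Printed first are the promoters of the 3 members that were lowest in IM-9-HR against its parental cells among those with an entry, a choice made after the values were seen. Each holds both elements, and capitals mark the CHR letters and the CCAAT letters on either strand.
CCNB1 (cyclin B1, chr5:69166900-69167149, + strand): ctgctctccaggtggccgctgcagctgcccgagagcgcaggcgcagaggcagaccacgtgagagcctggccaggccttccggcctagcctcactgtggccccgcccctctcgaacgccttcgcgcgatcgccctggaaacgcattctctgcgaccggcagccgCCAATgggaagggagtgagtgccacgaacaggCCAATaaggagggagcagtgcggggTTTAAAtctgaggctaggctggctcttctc
CDC20 (activator of the anaphase-promoting complex, chr1:43358731-43358980, + strand): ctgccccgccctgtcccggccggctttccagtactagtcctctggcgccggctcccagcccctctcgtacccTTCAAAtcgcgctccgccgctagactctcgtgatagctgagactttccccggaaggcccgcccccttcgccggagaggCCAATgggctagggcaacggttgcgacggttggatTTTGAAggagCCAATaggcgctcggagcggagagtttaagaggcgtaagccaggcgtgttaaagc
KIF20A (a kinesin of cytokinesis, chr5:138178862-138179111, + strand): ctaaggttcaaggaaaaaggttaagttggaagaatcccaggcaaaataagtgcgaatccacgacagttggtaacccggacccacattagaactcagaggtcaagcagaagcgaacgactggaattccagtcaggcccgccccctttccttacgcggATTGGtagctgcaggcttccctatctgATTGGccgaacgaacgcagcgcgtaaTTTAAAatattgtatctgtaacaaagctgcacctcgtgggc
In CCNB1 the CHR letters lay 30 to 25 bases before the start, with CCAAT at 55 to 51 and 87 to 83 bases. KIF20A held them at 41 to 36 bases, and CDC20 at 65 to 60 and 178 to 173 bases.

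The next 4 are shown because they are the members with an entry that were called in the most lines. None of them holds the CHR letters in this window. Capitals mark the E2F letters in CDC25B, on both strands, and those of CCAAT on the other strand in MAD2L1, and the other sequences hold no searched motif.
MYBL2 (B-MYB, chr20:43666864-43667113, + strand): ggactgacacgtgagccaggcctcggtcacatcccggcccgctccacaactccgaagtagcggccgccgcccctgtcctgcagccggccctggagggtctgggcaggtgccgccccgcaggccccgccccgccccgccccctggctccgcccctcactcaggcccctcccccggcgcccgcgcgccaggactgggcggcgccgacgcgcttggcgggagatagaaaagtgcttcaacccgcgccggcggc
CDC25B (phosphatase, first of several starts, chr20:3786701-3786950, + strand): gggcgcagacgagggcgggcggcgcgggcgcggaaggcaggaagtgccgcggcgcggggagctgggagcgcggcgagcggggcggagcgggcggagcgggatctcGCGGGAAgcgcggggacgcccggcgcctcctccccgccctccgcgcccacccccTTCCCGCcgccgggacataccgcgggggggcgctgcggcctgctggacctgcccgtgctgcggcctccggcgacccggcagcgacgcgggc
KIF2C (microtubule-depolymerising kinesin, chr1:44739587-44739836, + strand): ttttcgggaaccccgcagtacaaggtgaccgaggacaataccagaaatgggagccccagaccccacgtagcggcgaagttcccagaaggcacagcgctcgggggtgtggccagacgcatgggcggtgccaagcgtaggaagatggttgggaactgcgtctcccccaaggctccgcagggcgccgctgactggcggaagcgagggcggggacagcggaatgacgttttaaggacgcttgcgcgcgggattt
MAD2L1 (checkpoint protein MAD2, chr4:120066849-120067098, - strand): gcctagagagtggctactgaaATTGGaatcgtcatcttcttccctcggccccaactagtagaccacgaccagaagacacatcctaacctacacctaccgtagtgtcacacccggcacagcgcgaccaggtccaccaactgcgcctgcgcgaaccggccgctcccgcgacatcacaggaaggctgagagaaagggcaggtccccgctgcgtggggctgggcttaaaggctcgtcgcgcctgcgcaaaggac
No match says only that these letters are not in this window. Members with the CHR letters had a median HR difference of −0.20 in IM-9, 0.16 in U266, −0.30 in RPMI8226 and −0.05 in KMS-11, and the 12 without them −0.30, 0.21, −0.19 and −0.04, so the direction per line was that of the whole list on both sides.

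The comparison of HR with parental cells asked how the transcriptome of resistant cells differs, and for the mitosis genes the answer differed between lines. Many fell in RPMI8226-HR and IM-9-HR, a smaller number rose in U266-HR, and few were called in KMS-11-HR. In RPMI8226, 23 of 41 fell and 1 rose (limma adjusted p under 0.05 over all genes tested), where 15.3% of all tested genes fell and 10.7% rose (26.0% either way). In KMS-11, 3 fell and 0 rose (5.83% and 2.44% of all genes, 8.27% either way), and no member was higher even at an unadjusted p under 0.05. In U266, 11 rose and 0 fell (9.68% and 8.42%, 18.1% either way), with 21 higher and 1 lower at an unadjusted p under 0.05. In IM-9, 23 fell and 1 rose (21.3% and 14.4%, 35.7% either way). Median differences of the 41 were −0.30, −0.07, 0.19 and −0.24 on the log2 scale in that order, beside −0.01, −0.02, −0.01 and −0.06 for all tested genes. Errors given as ± are standard errors of these fits, on n = 2 arrays per group.

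**Figure D1:**
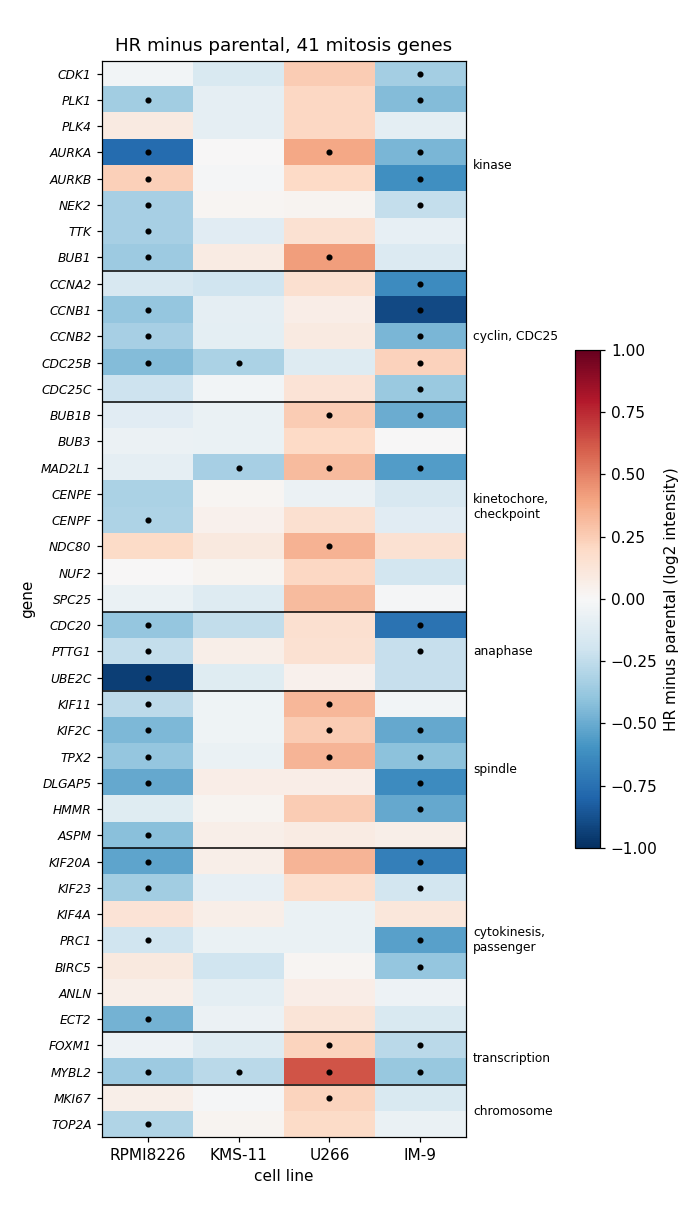
HR minus parental difference in log2 intensity of each of the 41 members (rows, grouped by role) in each line (columns), red higher and blue lower, with a dot where limma called it. The RPMI8226 and IM-9 columns are mostly blue, with 23 falls each, the U266 column is mostly red, with 11 rises, and the KMS-11 column is pale, with 3 falls.

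The counts depended on single arrays. In RPMI8226 the members called numbered 24, but 12 without parental array 2 and 11 without HR array 1, and 13 when only the 4 arrays of that line were fitted. In U266 they numbered 11, but 3 without parental array 2, 7 without HR array 1 and 4 without HR array 2. With array weights they numbered 20. Both arrays of a group had the same weight, so the weights rate groups and not single arrays. The 3 calls of KMS-11 were 0 without parental array 1 or HR array 2, and 1 without either of the other arrays. In IM-9 they ranged from 19 to 24 over all arrays left out. Of the RPMI8226 calls, those of CCNB1, CDC20, CENPF, KIF11, KIF20A, PLK1, TOP2A, TTK, CCNB2, PRC1 and PTTG1 were lost without parental array 2 and without HR array 1, that of NEK2 without parental array 1 or HR array 1, and that of ECT2 without parental array 2 or HR array 2. In U266 only BUB1, MYBL2 and NDC80 were called whichever array was left out. In IM-9 the calls of CDC25B, CDC25C, CDK1, KIF23, NEK2 and PTTG1 were lost without at least 1 array. The direction of each of the 62 calls was the same in every alternative fit, but most of these fits leave the difference of the group means as it is. Only another normalization, the mean of all probe sets and a left-out array of the same line could move it.

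Arrays of the same group differed for many members at once. On HR array 2 of RPMI8226, 37 of 41 members were higher than on HR array 1 (51.6% of all tested genes), by a median of 0.13, and on parental array 2, 29 were higher than on parental array 1, by 0.09. In IM-9, 36 were higher on array 2 in parental cells, by 0.11, and 29 in HR cells, by 0.03. In KMS-11, 30 were higher on array 2 in parental and 30 in HR cells, by 0.04 each. So in RPMI8226, KMS-11 and IM-9 most members were higher on array 2 in both conditions. In U266, 9 were higher on it in parental and 18 in HR cells. Of all tested genes, 42.3% (parental U266) to 56.7% (parental IM-9) were higher on array 2. The median of the 41 members was 9.37 and 9.53 on the parental arrays of RPMI8226 and 9.23 and 9.36 on its HR arrays. In KMS-11 it was 9.42 and 9.53 in parental and 9.37 and 9.43 in HR cells. It was 9.35 and 9.30 against 9.54 and 9.56 in U266, and 9.66 and 9.74 against 9.25 and 9.32 in IM-9. By this median the groups did not overlap in U266 and IM-9, nearly met in RPMI8226 and overlapped in KMS-11.

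**Figure D2:**
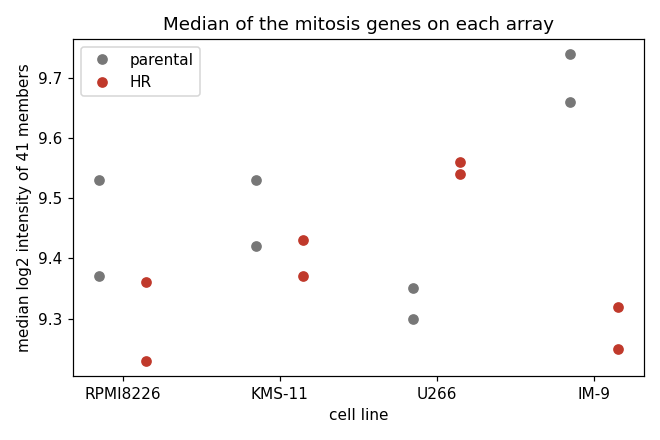
Median log2 intensity of the 41 members on each of the 16 arrays (points), parental in grey and HR in red, by line. The HR arrays of U266 (9.54 and 9.56) lie above its parental arrays (9.35 and 9.30), those of IM-9 (9.25 and 9.32) lie below theirs (9.66 and 9.74), and the KMS-11 groups overlap.

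Separation of the arrays followed the same lines. In U266, both HR arrays lay above both parental arrays for 34 of 41 members (29.2% of all tested genes) and below for 2 (32.8%). Of the IM-9 members, 30 lay below on both HR arrays (39.5%) and 4 above (25.6%). In RPMI8226, 24 lay below (32.1%) and 4 above (25.6%), and in KMS-11, 19 lay below (34.4%) and 5 above (24.7%).

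**Figure D3:**
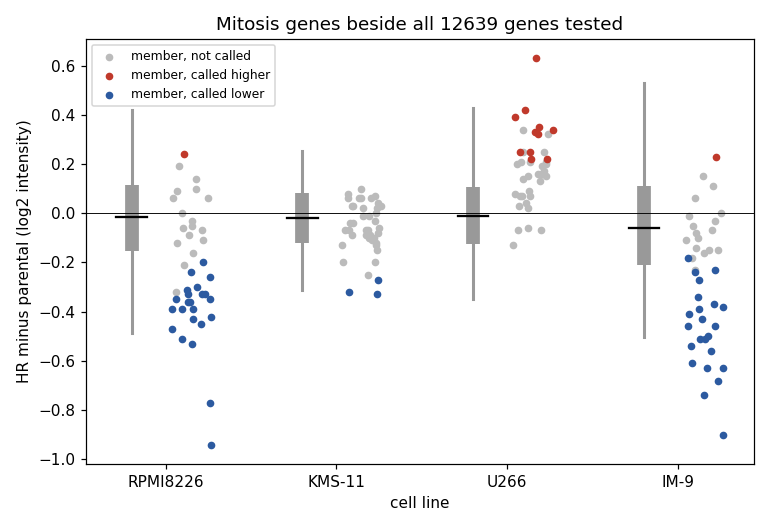
HR minus parental difference in log2 intensity of the 41 members (points, red called higher, blue called lower, grey not called) beside all 12639 genes tested (thick bar, interquartile range; thin bar, percentiles 5 to 95; black line, median), by line. The members of RPMI8226 and IM-9 reach down to −0.94 and −0.90, and those of U266 up to 0.63.

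Whether the HR effect differed between lines was tested directly. By the limma F test it did so for 32 of 41 members (45.4% of all genes tested), with the smallest adjusted p for MYBL2, at 2.71e-06. The exceptions were PLK4, CDC25C, BUB3, CENPE, NDC80, NUF2, SPC25, KIF4A and ANLN. Against the mean of the other 3 lines, a contrast added after the data were seen, the U266 effect was higher for 27 members and lower for 0 (15.0% and 9.67% of all genes). The RPMI8226 effect was lower for 16 (14.2%) and higher for 2 (12.6%), and the IM-9 effect lower for 19 (17.0%) and higher for 1 (13.8%). For KMS-11 it was higher for 1 member and lower for 0, where 3.70% and 5.82% of all genes were called.

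Across the 4 lines, with the line as the unit, limma called 0 of 41 members and 0 genes of all (0%; 288 higher and 505 lower at an unadjusted p under 0.05), and NDC80 was the only member with an unadjusted p under 0.05 (0.20 ± 0.07, adjusted p = 0.764 by limma). Member differences across lines ranged from −0.33 for CCNB1 to 0.20 for NDC80, with standard errors from 0.07 to 0.19. PRC1 was lower in all 4 lines and NDC80 higher in all 4, and no other member kept 1 sign throughout. Fits of the 16 single arrays, by either kind of block, also called 0 members.

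By pairs of lines, 14 members fell in both RPMI8226 and IM-9 (34.1% of the members, where 3.91% of all tested genes fell in both). AURKB rose in RPMI8226 and fell in IM-9, and CDC25B did the reverse. Of the 11 members that rose in U266, 6 fell in RPMI8226 (14.6% of members, 1.99% of all genes) and 7 fell in IM-9 (17.1% and 2.29%). MAD2L1 and MYBL2 rose in U266 and fell in KMS-11. In all, 34 members were called in at least 1 line (82.9%, where 58.0% of all tested genes were), 6 in at least 3 lines (14.6%, against 6.04%) and 11 in opposite directions in different lines (26.8%, against 10.8%).

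**Figure D4:**
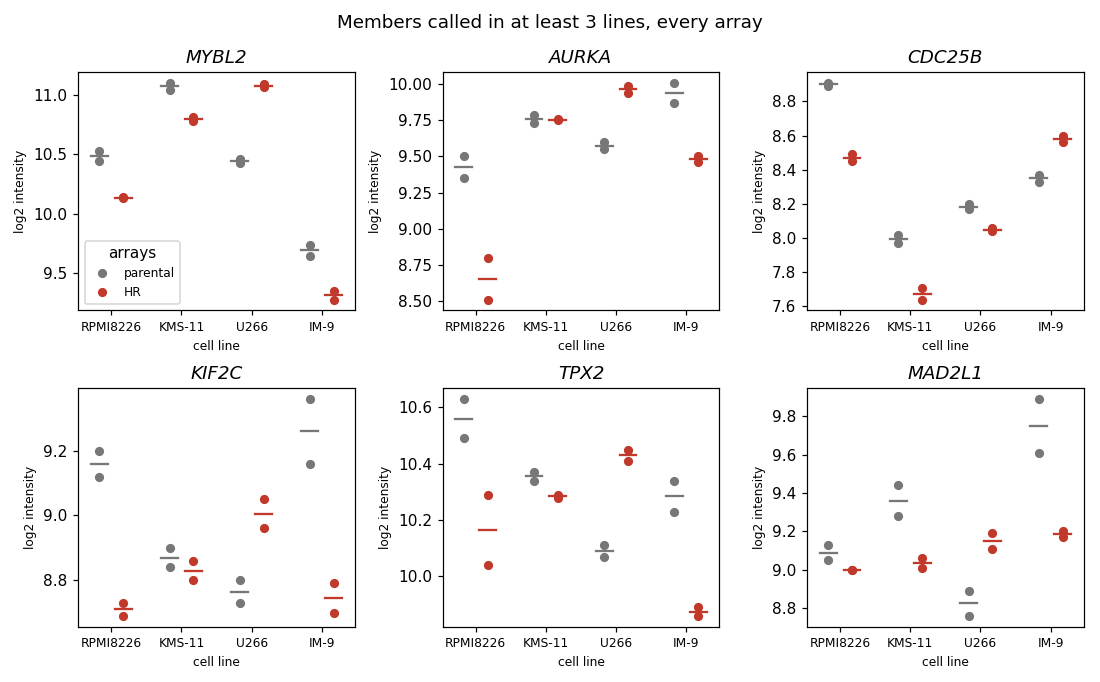
Log2 intensity on every array (points) and group mean (short line) of the 6 members called in at least 3 lines, parental in grey and HR in red. MYBL2 is lower in HR cells of RPMI8226, KMS-11 and IM-9 and higher in those of U266, and CDC25B is higher in HR cells of IM-9 and lower in those of RPMI8226 and KMS-11.

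Both transcription factors were called in U266 and in IM-9, in opposite directions. MYBL2 encodes B-MYB, which joins the MuvB core to activate late cell cycle genes. In U266 its arrays read 10.46 and 10.43 in parental and 11.09 and 11.06 in HR cells, a rise of 0.63 ± 0.06 (1.55-fold, adjusted p = 7.88e-06, limma). It was 10.44 and 10.53 in parental and 10.13 and 10.14 in HR cells in RPMI8226 and fell by 0.36 ± 0.06. In KMS-11 it was 11.04 and 11.10 in parental and 10.78 and 10.81 in HR cells, a fall of 0.27 ± 0.06. In IM-9 it was 9.65 and 9.74 in parental and 9.28 and 9.35 in HR cells, a fall of 0.38 ± 0.06. No line had overlapping groups, and MYBL2 was the only member called in all 4 lines (1.06% of all tested genes were), although its KMS-11 call was lost without any 1 of the 4 KMS-11 arrays.

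FOXM1 encodes the forkhead factor that drives genes of the G2 and M phases. It was 9.66 and 9.65 in parental and 9.37 and 9.39 in HR cells in IM-9 and fell by 0.27 ± 0.07. In U266 it was 8.71 and 8.76 in parental and 8.90 and 9.02 in HR cells and rose by 0.22 ± 0.07. That call was kept in 9 of 16 fits that left out an array, but was lost without U266 parental array 1, parental array 2 or HR array 2. RPMI8226 and KMS-11 differences were −0.05 and −0.13 and were not called.

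Counts by role are to be read against the shares of all tested genes that were called. These were 15.3% lower and 10.7% higher in RPMI8226, and 5.83% and 2.44% in KMS-11. In U266 they were 8.42% and 9.68%, and in IM-9 21.3% and 14.4%. The 8 kinase genes fell in 5 cases and rose in 1 in RPMI8226 (median −0.33), rose in 2 in U266 (median 0.21) and fell in 5 in IM-9 (median −0.29), with 0 called in KMS-11 (median −0.05), also at an unadjusted p under 0.05 in limma. AURKA, the Aurora kinase of centrosomes and spindle poles, was 9.35 and 9.50 in parental and 8.51 and 8.80 in HR cells in RPMI8226, a fall of 0.77 ± 0.09 (1.71-fold lower, adjusted p = 3.92e-05, limma). In IM-9 it was 9.87 and 10.01 in parental and 9.46 and 9.50 in HR cells, a fall of 0.46 ± 0.09. U266 went the other way, with 9.60 and 9.55 in parental and 9.94 and 9.99 in HR cells, a rise of 0.39 ± 0.09 that was lost without parental array 2 or HR array 2. In KMS-11 the groups overlapped, at 9.73 and 9.79 in parental and 9.75 and 9.76 in HR cells.

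AURKB, the Aurora kinase of the chromosomal passenger complex, did not follow AURKA in RPMI8226. There it was 9.19 and 8.98 in parental and 9.28 and 9.36 in HR cells and rose by 0.24 ± 0.08, with an adjusted p of 0.0466 in limma that stayed under the threshold in 4 of 8 alternative fits and in 5 of 16 fits that left out an array. In IM-9 it was 9.77 and 9.74 in parental and 9.05 and 9.25 in HR cells and fell by 0.61 ± 0.08 (1.52-fold lower), the largest fall among the kinases of that line. Its differences in U266 and KMS-11 were 0.20 and −0.01, neither of them called.

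BUB1, a checkpoint kinase at the kinetochore, was 10.61 and 10.56 in parental and 11.04 and 10.97 in HR cells in U266 and rose by 0.42 ± 0.07, a call kept in every alternative and without any single array. In RPMI8226 it was 11.32 and 11.44 in parental and 10.98 and 11.08 in HR cells and fell by 0.36 ± 0.07. Its IM-9 difference was −0.14 and its KMS-11 difference 0.08, not called. PLK1, the Polo kinase of mitotic entry, fell by 0.35 ± 0.10 in RPMI8226 and 0.43 ± 0.10 in IM-9. CDK1, the kinase that drives entry, fell in IM-9 by 0.34 ± 0.09, and its RPMI8226 difference of −0.03 was not called. NEK2, a kinase of centrosome separation, fell by 0.33 ± 0.08 in RPMI8226 and by 0.24 ± 0.08 in IM-9, where the call was kept in 4 of 8 alternative fits. TTK, the checkpoint kinase MPS1, fell by 0.33 ± 0.09 in RPMI8226, and PLK4, which starts centriole duplication, was called in no line (−0.10 to 0.21).

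Among the 5 cyclin and CDC25 genes, 3 fell in RPMI8226, 1 in KMS-11 and 4 in IM-9, where 1 rose, and 0 were called in U266 (medians −0.33, −0.10, −0.46 and 0.09 in RPMI8226, KMS-11, IM-9 and U266). In U266 the only 1 of them with an unadjusted limma p under 0.05 was CDC25B, on the lower side. CCNB1, cyclin B1, was 9.88 and 9.92 in parental and 9.02 and 8.99 in HR cells in IM-9 and fell by 0.90 ± 0.10 (1.86-fold lower, adjusted p = 1.81e-05, limma), the largest fall of any member there. The arrays of RPMI8226 read 9.70 and 9.90 in parental and 9.23 and 9.59 in HR cells, and it fell by 0.39 ± 0.10, a call lost without parental array 2 or HR array 1. The arrays of U266 read 9.47 and 9.49 in parental and 9.53 and 9.57 in HR cells, and those of KMS-11 9.89 and 9.94 in parental and 9.80 and 9.85 in HR cells, both with differences under 0.10 in size. CCNB2, cyclin B2, fell by 0.33 ± 0.11 in RPMI8226, where its groups overlapped and the call was kept in 2 of 16 fits that left out an array, and by 0.46 ± 0.11 in IM-9. CCNA2, cyclin A2, fell by 0.63 ± 0.09 in IM-9 and CDC25C fell by 0.37 ± 0.11 there.

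CDC25B, the phosphatase that starts CDK1 activation, ran against the other members in IM-9. Its arrays there read 8.33 and 8.37 in parental and 8.60 and 8.56 in HR cells, and it rose by 0.23 ± 0.06, the only member to rise in that line. In RPMI8226 it was 8.91 and 8.89 in parental and 8.49 and 8.45 in HR cells and fell by 0.43 ± 0.06. In KMS-11 it was 8.02 and 7.97 in parental and 7.71 and 7.64 in HR cells and fell by 0.32 ± 0.06, a call lost without parental array 1 or HR array 2. In U266 both HR arrays, at 8.04 and 8.06, were under both parental arrays, at 8.17 and 8.20, but the difference of −0.13 did not pass.

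The 8 measured kinetochore and checkpoint genes had 1 fall in RPMI8226 (median −0.08), 3 rises in U266 (median 0.23), 2 falls in IM-9 (median −0.13) and 1 fall in KMS-11 (median −0.03). MAD2L1, which encodes the checkpoint protein MAD2, was 9.61 and 9.89 in parental and 9.20 and 9.17 in HR cells in IM-9 and fell by 0.56 ± 0.09. In KMS-11 it was 9.28 and 9.44 in parental and 9.01 and 9.06 in HR cells and fell by 0.33 ± 0.09, with adjusted p = 0.0382 in limma. That call was kept in 8 of 16 fits that left out an array, but was lost without any 1 of the 4 KMS-11 arrays. The call was also lost with the array number as a block, with no filter and with only the arrays of that line. In U266 MAD2L1 was 8.89 and 8.76 in parental and 9.19 and 9.11 in HR cells and rose by 0.32 ± 0.09. The RPMI8226 groups were separate but close, at 9.13 and 9.05 in parental and 9.0 and 9.0 in HR cells.

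BUB1B, which encodes the checkpoint protein BUBR1, was 9.83 and 9.86 in parental and 9.37 and 9.33 in HR cells in IM-9 and fell by 0.50 ± 0.06. The arrays of U266 read 9.35 and 9.25 in parental and 9.54 and 9.56 in HR cells, and it rose by 0.25 ± 0.06. NDC80, the microtubule-binding subunit of the outer kinetochore, was 8.82 and 8.78 in parental and 9.15 and 9.15 in HR cells in U266 and rose by 0.35 ± 0.08. Unlike most members it had a positive difference in the other lines too, 0.19 in RPMI8226, 0.10 in KMS-11 and 0.15 in IM-9, none of them called. CENPF, a large kinetochore-associated protein, was 9.91 and 10.08 in parental and 9.62 and 9.77 in HR cells in RPMI8226 and fell by 0.31 ± 0.07. BUB3, the kinesin gene CENPE and the NDC80 partners NUF2 and SPC25 were called in no line, with differences from −0.32 (CENPE in RPMI8226) to 0.32 (SPC25 in U266).

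All 3 anaphase genes fell in RPMI8226 (median −0.39) and 2 fell in IM-9 (median −0.23), with 0 called in KMS-11 or U266 (medians −0.12 and 0.15), and the only unadjusted limma p under 0.05 there was that of CDC20 in KMS-11. UBE2C, the ubiquitin-conjugating enzyme of the anaphase-promoting complex, was 7.41 and 7.27 in parental and 6.41 and 6.39 in HR cells in RPMI8226 and fell by 0.94 ± 0.11 (1.92-fold lower, adjusted p = 6.18e-05, limma), the largest fall of any member in any line. In U266 it was dim, at 6.0 and 5.61 in parental and 5.71 and 5.98 in HR cells, under the table median of 6.27 on each array. CDC20, which activates that complex, was 10.17 and 10.12 in parental and 9.34 and 9.49 in HR cells in IM-9 and fell by 0.74 ± 0.11. The arrays of RPMI8226 read 10.40 and 10.60 in parental and 9.93 and 10.30 in HR cells, and it fell by 0.39 ± 0.11, and its KMS-11 difference of −0.25 did not pass. PTTG1, securin, fell by 0.24 ± 0.07 in RPMI8226 and 0.23 ± 0.07 in IM-9.

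Of the 6 spindle genes, 5 fell in RPMI8226 (median −0.41), 4 fell in IM-9 (median −0.46) and 3 rose in U266 (median 0.25), with 0 called in KMS-11 (median −0.01), also at an unadjusted p under 0.05 in limma. DLGAP5, the spindle protein HURP, was 10.45 and 10.74 in parental and 9.99 and 9.95 in HR cells in IM-9 and fell by 0.63 ± 0.09. In RPMI8226 it was 9.37 and 9.45 in parental and 8.80 and 9.02 in HR cells and fell by 0.51 ± 0.09. TPX2, which activates Aurora A on the spindle, was 10.49 and 10.63 in parental and 10.04 and 10.29 in HR cells in RPMI8226 and fell by 0.39 ± 0.08, as it did in IM-9, where it was 10.23 and 10.34 in parental and 9.89 and 9.86 in HR cells and fell by 0.41 ± 0.08. In U266 TPX2 was 10.11 and 10.07 in parental and 10.45 and 10.41 in HR cells and rose by 0.34 ± 0.08.

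KIF2C encodes the kinesin that removes tubulin at kinetochores. It was 9.20 and 9.12 in parental and 8.69 and 8.73 in HR cells in RPMI8226 and fell by 0.45 ± 0.07. In IM-9 it was 9.16 and 9.36 in parental and 8.70 and 8.79 in HR cells and fell by 0.51 ± 0.07. In U266 it was 8.80 and 8.73 in parental and 8.96 and 9.05 in HR cells and rose by 0.25 ± 0.07, a call lost without any 1 of the 4 U266 arrays. KIF11, the Eg5 motor that separates spindle poles, was 9.28 and 9.22 in parental and 9.55 and 9.60 in HR cells in U266 and rose by 0.33 ± 0.07. The arrays of RPMI8226 read 9.12 and 9.12 in parental and 8.79 and 8.93 in HR cells, and it fell by 0.26 ± 0.07, and in IM-9 its groups overlapped (−0.03). HMMR, the microtubule-binding protein RHAMM, fell by 0.51 ± 0.13 in IM-9. ASPM, a spindle pole protein, fell by 0.42 ± 0.07 in RPMI8226, and its differences in the other lines were 0.06, 0.08 and 0.06.

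Cytokinesis and passenger genes fell in 4 of 7 cases in RPMI8226 (median −0.20) and in 4 of 7 in IM-9 (median −0.18), and 0 were called in U266 or KMS-11 (medians 0.07 and −0.07), where 2 were higher and 1 lower at an unadjusted limma p under 0.05. KIF20A, the central spindle kinesin MKLP2, was 9.66 and 9.77 in parental and 9.01 and 9.07 in HR cells in IM-9 and fell by 0.68 ± 0.15. In RPMI8226 it was 9.27 and 9.62 in parental and 8.62 and 9.20 in HR cells and fell by 0.53 ± 0.15, with HR array 2 close to parental array 1. In U266 its groups were apart, 9.34 and 9.30 in parental and 9.67 and 9.66 in HR cells, yet the difference of 0.34 did not pass. KIF23, a centralspindlin kinesin, fell by 0.35 ± 0.06 in RPMI8226 and 0.18 ± 0.06 in IM-9, where the call was kept in 4 of 16 fits that left out an array. PRC1, the bundler of midzone microtubules, fell by 0.20 ± 0.06 in RPMI8226, a call kept in 5 of those 16 fits, and by 0.54 ± 0.06 in IM-9. BIRC5, survivin, fell by 0.39 ± 0.07 in IM-9, and ECT2, which activates RhoA at the furrow, fell by 0.47 ± 0.11 in RPMI8226. ECT2 lies on chromosome 3, where 25.6% of tested genes fell and 24.9% rose in RPMI8226, against 15.3% and 10.7% of all genes. The part of that in its fall was not tested. ANLN, anillin, and the chromokinesin KIF4A were called in no line.

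The proliferation antigen gene MKI67 was called in 1 line. The arrays of U266 read 10.96 and 10.92 in parental and 11.18 and 11.14 in HR cells, and it rose by 0.22 ± 0.07, a call lost in 10 of 16 fits that left out an array. Its differences in RPMI8226, KMS-11 and IM-9 were 0.06, −0.01 and −0.15. TOP2A, topoisomerase II alpha, was 10.52 and 10.62 in parental and 10.18 and 10.37 in HR cells in RPMI8226 and fell by 0.30 ± 0.07, whereas it was −0.07 in IM-9 and not called.

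Levels also differed between the parental lines, as they did for most genes. The F test over the parental groups called 40 of 41 members (94.3% of all genes tested), the exception being SPC25. Levels of 3 members are given as examples chosen after their values were seen. MKI67 was 9.54 and 9.67 in parental RPMI8226, 10.92 and 10.97 in KMS-11, 10.96 and 10.92 in U266, and 11.12 and 11.20 in IM-9, so that RPMI8226 stood more than 1 log2 unit under the others while KMS-11 and U266 overlapped. UBE2C was lowest in U266, at 6.0 and 5.61, then 7.41 and 7.27 in RPMI8226, 8.09 and 7.98 in IM-9 and 8.41 and 8.37 in KMS-11, with no overlap between neighbours. MYBL2 was 9.65 and 9.74 in IM-9, 10.44 and 10.53 in RPMI8226, 10.46 and 10.43 in U266 and 11.04 and 11.10 in KMS-11, and the groups of RPMI8226 and U266 overlapped.

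Chromosome 20 holds 5 of the members, AURKA, CDC25B, MYBL2, TPX2 and UBE2C, and all 5 fell in RPMI8226 (median −0.43). On that chromosome 154 of 356 tested genes (43.3%) fell in RPMI8226 and 7 rose, with a median of −0.20. The part of a chromosome-wide shift in the 5 falls was not tested. Without these 5, 18 of 36 members fell in RPMI8226 and 1 rose (median −0.23), 8 rose in U266 (median 0.18) and 20 fell in IM-9 (median −0.23). In KMS-11, 1 of 36 fell, MAD2L1. In U266, 3 of the 5 rose. Of the 356 tested genes of chromosome 20, 84 rose there (23.6%, against 9.68% of all genes) and 58 fell (16.3%, against 8.42%), with a median of 0.09. In IM-9, 3 of the 5 fell and 1 rose. There 67 genes of that chromosome fell (18.8%, against 21.3%) and 30 rose (8.43%, against 14.4%), with a median of −0.07. The part of a chromosome-wide shift was not tested in these lines either.

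Genes of the same machinery outside the list were counted in the same way, to be read against the shares of all tested genes that fell and rose (15.3% and 10.7% in RPMI8226, 5.83% and 2.44% in KMS-11, 8.42% and 9.68% in U266, 21.3% and 14.4% in IM-9). Of 65 measured mitosis genes outside the 41, 16 fell and 4 rose in RPMI8226, 7 fell in KMS-11, 19 rose and 1 fell in U266, and 33 fell and 3 rose in IM-9 (medians −0.08, −0.12, 0.17 and −0.24). The largest changes were in BORA, an activator of Aurora A, in RPMI8226 (−0.81 ± 0.08), the kinetochore gene MIS12 in KMS-11 (−0.45 ± 0.09), its partner DSN1 in U266 (0.45 ± 0.08) and CKS1B, a CDK-binding protein, in IM-9 (−0.79 ± 0.07). CKS1B has 3 probe sets with its symbol alone, and the value is that of the one with the highest mean. BORA lies on chromosome 13, where 126 of 215 tested genes fell in RPMI8226, and the part of that in its fall was not tested. DSN1 lies on chromosome 20, where 84 of 356 tested genes rose in U266, and the part of that in its rise was not tested either. The centromere gene CENPI rose in RPMI8226 (0.37 ± 0.08) and fell in U266 (−0.38 ± 0.08), and NSL1 rose in IM-9 (0.48 ± 0.06).

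Subunits and regulators of the anaphase-promoting complex were called as follows: 4 of 17 lower in RPMI8226 (23.5%, against 15.3% of all genes), 2 lower in KMS-11 (11.8%, against 5.83%), 2 higher and 1 lower in U266 (11.8% and 5.88%, near the 9.68% and 8.42% of all genes), and 6 lower in IM-9 (35.3%, against 21.3%). ANAPC13 fell in RPMI8226 (−0.61 ± 0.08) and in U266 (−0.30 ± 0.08), and FBXO5, the inhibitor EMI1, rose in U266 (0.41 ± 0.06). ANAPC13 lies on chromosome 3, where 173 of 676 tested genes fell in RPMI8226 and 168 rose. The part of that in its fall there was not tested. UBE2S, the chain-extending partner of UBE2C, fell in IM-9 (−0.45 ± 0.13) and ANAPC1 in KMS-11 (−0.28 ± 0.06). UBE2S has 2 probe sets with its symbol alone and was read from the one with the higher mean.

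In KMS-11, 24 of 37 G1/S and replication genes fell and 0 rose (median −0.32), beside 3 of 41 mitosis genes. In U266 24 rose and 0 fell (median 0.35), in RPMI8226 11 fell and 2 rose (median −0.12), and in IM-9 19 fell and 2 rose (median −0.24). GINS2, a subunit of the replicative helicase, fell most in KMS-11 (−0.68 ± 0.09) and in IM-9 (−0.73 ± 0.09). In RPMI8226 the helicase subunit MCM2 fell (−0.64 ± 0.06) and the thymidylate synthase TYMS rose (0.62 ± 0.07). MCM2 lies on chromosome 3, where 173 of 676 tested genes fell in RPMI8226 and 168 rose. The part of that in the fall of MCM2 was not tested. The G1 kinase CDK6 rose in U266 (1.64 ± 0.07), and CCNE2, cyclin E2, rose in IM-9 (0.82 ± 0.18).

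Among 22 genes of E2F, DREAM and NF-Y, 10 rose and 0 fell in U266 (median 0.22), 6 fell and 1 rose in RPMI8226, 4 fell in KMS-11, and 7 fell and 5 rose in IM-9. E2F7, a repressor of the E2F family, rose in U266 (0.72 ± 0.07) and fell in KMS-11 (−0.32 ± 0.07). The retinoblastoma gene RB1, on chromosome 13, fell in RPMI8226 (−0.59 ± 0.10) and NFYA, a subunit of NF-Y, rose there (0.40 ± 0.06). LIN52, a MuvB subunit, rose in IM-9 (0.68 ± 0.06) and E2F5 fell (−0.57 ± 0.09). LIN52 lies on chromosome 14, where 124 of 391 tested genes (31.7%) rose in IM-9, against 14.4% of all genes. The part of that in its rise was not tested.

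In the list of CDK inhibitors and other brakes, 1 of 13 genes rose and 2 fell in RPMI8226 (7.69% and 15.4%, against 10.7% and 15.3% of all genes), 1 rose in KMS-11, 2 rose and 1 fell in U266 (15.4% and 7.69%, against 9.68% and 8.42%), and 2 rose and 3 fell in IM-9 (15.4% and 23.1%, against 14.4% and 21.3%). In RPMI8226 and IM-9 these shares lie near those of all genes. CDKN1B, the inhibitor p27, rose in IM-9 (0.42 ± 0.07), and the p53 target CDKN1A, the inhibitor p21, fell in RPMI8226 (−0.52 ± 0.13). BTG1, an antiproliferative gene, rose in RPMI8226 (0.35 ± 0.09) and KMS-11 (0.32 ± 0.09). CDKN3, a phosphatase of CDKs whose transcript peaks in mitosis, fell in IM-9 (−0.75 ± 0.10) and rose in U266 (0.49 ± 0.10), and the stress gene GADD45A fell in U266 (−0.49 ± 0.09).

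**Figure D5:**
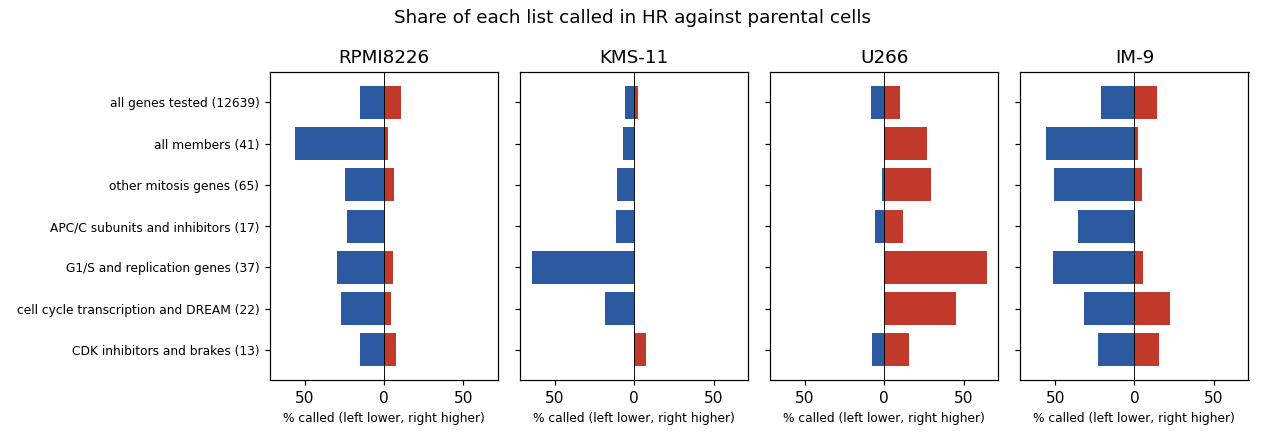
Percent of the genes of each list (rows, number of genes tested in brackets) that limma called lower (blue, left) or higher (red, right) in HR against parental cells, 1 panel per line, with all 12639 genes tested in the top row. In KMS-11 the G1/S and replication list has 24 of 37 lower beside 3 of 41 members, and in U266 it has 24 of 37 higher beside 11 of 41.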

How the data were processed

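RNA of 16 samples (8 groups of 2 arrays) was measured on Affymetrix Human Gene arrays. The authors deposited a table of log2 intensities for 33297 probe sets, made with Affymetrix Expression Console 1.3.0 per the submitters' processing notes; background correction and normalization are not given in the sources used here. Array medians ran from 6.22 to 6.34, and replicate arrays correlated at r = 0.9925 to 0.9962 over the table. The number of arrays limits the precision.

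A gene was read from its probe set with a single symbol and the highest mean (19460 such probe sets, 1754 with several symbols and 12083 not in the platform table, unnamed here). Genes above the table median of 6.27 in at least 2 arrays were tested. limma 3.58.1 in R 4.3.3 fitted all 8 groups with 1 shared spread; the test across lines used 8 line and condition means with line as a block. P-values were adjusted by Benjamini-Hochberg over all 12639 genes, at 0.05. The fit was tested on simulated data. Array numbers were not taken to pair the samples.

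The members, role classes and related lists were chosen with earlier results of these data known. Values of every array are given for the called member with the largest change per class and line, members called in at least 3 lines and members called in opposite directions; of related lists, the largest called change in each direction per line. Promoters were printed for up to 4 members called in the most lines; 3 more were chosen after values were seen. Alternatives were another normalization, filters, probe set rules, a variance trend, array weights, blocks, single-line fits and left-out arrays or lines.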

Additional observations from a re-analysis of the deposited data

Results flagged for a closer look

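The HR difference of 32 members differed between the 4 lines by the limma F test (adjusted p under 0.05 over all genes tested), and for each the gap between its highest and lowest line difference is given on the log2 scale. The widest gaps belonged to AURKA (1.16), KIF20A (1.02), MYBL2 (1.01), UBE2C (0.98), CCNB1 (0.97), CDC20 (0.90), MAD2L1 (0.88), AURKB (0.85), CCNA2 (0.79), BUB1 (0.78), KIF2C (0.76), HMMR (0.76), BUB1B (0.75), TPX2 (0.75) and DLGAP5 (0.70). Gaps in the middle of the range were those of CDC25B (0.66), PLK1 (0.64), ECT2 (0.60), CDK1 (0.59), KIF11 (0.59), CCNB2 (0.55), KIF23 (0.52) and ASPM (0.50). The narrowest were those of BIRC5 (0.49), FOXM1 (0.49), TOP2A (0.49), TTK (0.48), CENPF (0.47), PRC1 (0.47), PTTG1 (0.39), MKI67 (0.37) and NEK2 (0.36).

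Within the 4 line differences of a member, 1 line stood far from the other 3 in 2 of the 41 members. ASPM was −0.42 in RPMI8226 against differences near 0 elsewhere, and MYBL2 was 0.63 in U266 against falls in the other lines. The limit used was Dixon's critical value, which by its construction chance passes in about 1 of 20 groups, and 2 of 41 is near that. The rate in these data was not measured.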

How the results depend on the processing

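Members called numbered 24 in IM-9, 24 in RPMI8226, 11 in U266 and 3 in KMS-11. Renormalizing, other filters and probe set rules and a variance trend kept each count within 1.5 times. U266 gave 20 with array weights, RPMI8226 gave 13 when only its 4 arrays were fitted, and KMS-11 gave 1 without the chromosome 20 members. Leaving out 1 array gave 19 to 24 in IM-9, 11 to 24 in RPMI8226, 3 to 15 in U266, 0 to 3 in KMS-11, 26 to 35 members whose HR effect differed between lines (32 with all arrays), 39 to 41 whose parental level differed, and 0 across lines. Of the 62 calls, 31 were kept under every alternative and left-out array. None changed direction, though most of these fits could not move the difference itself.

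Array numbers were shared by parental and HR groups. Over all tested genes, deviations of same-numbered arrays correlated at 0.109 in IM-9, 0.205 in RPMI8226, −0.048 in U266 and 0.071 in KMS-11. The numbers were therefore not taken to pair samples, although most members were higher on array 2 in both conditions of RPMI8226, KMS-11 and IM-9. With the array number as a replicate block, 24, 24, 14 and 2 members were called in IM-9, RPMI8226, U266 and KMS-11. The HR effect then differed between lines for 32 members, and 0 members were called across lines, beside 176 of all genes. The number of arrays, 2 per group, limits the precision of each difference.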

Other observations

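CENPA was measured only on a probe set shared with SLC35F6, so its values belong to neither gene alone. That probe set read 9.20 and 9.15 in parental and 8.41 and 8.58 in HR cells of IM-9 (−0.68), and 9.09 and 9.20 against 8.49 and 8.94 in RPMI8226 (−0.43). Its differences in KMS-11 and U266 were −0.09 and 0.12.

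A second BIRC5 probe set, dim at 4.93 to 5.54, differed by −0.26 in IM-9, 0.02 in RPMI8226, −0.07 in U266 and −0.08 in KMS-11. A probe set shared by KIF4B and KIF4A differed by 0.05, 0.01, −0.13 and 0.06 in the same order.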
